A study of Homo sapiens with 17 samples.

Results

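Enhancer e1 is a distal regulatory element of SOX2, and here it was switched on by CRISPR activation (CRISPRa) in SKMES1, a human lung squamous cell carcinoma line in which SOX2 is scarcely transcribed. The members are 4 of the 17 RNA-seq libraries of the series: 2 libraries with e1 guides, sg-e1#1 and sg-e1#3 (guide 1 and guide 3), and 2 with negative control guides, sg-NC#1 and sg-NC#2 (control 1 and control 2), chosen by cell line and treatment label. All 4 carried the same CRISPRa machinery, a nuclease-dead Cas9 fused to VP64 with further activators drawn in by the guide RNA, delivered by lentivirus and followed by drug selection, so the groups differ in the guide. The libraries hold poly-A RNA of selected cell pools, and each guide was sequenced once. No label says whether the 2 libraries of a group came from separate infections, so p-values measure the spread between these libraries.

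SOX2 encodes an HMG-box transcription factor that holds stem and progenitor cells in an undifferentiated state and specifies the basal cells of the esophagus and airway. Squamous tumours often amplify its locus, and distal enhancers downstream of the gene can drive its transcription there. A CRISPRa complex placed on an enhancer raises the activity of that element, so a gene under its control can be transcribed from its own promoter. A guide can also act at other sites of the genome, which is why changes shared by both e1 guides and changes seen in 1 library are given apart.

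The 4 libraries held between 9009096 (guide 1) and 15781463 (guide 3) expected read counts, and mitochondrial genes took 3.36% to 4.68% of them. The controls differed from each other more than the e1 libraries did. Among the 12106 genes that averaged 50 counts or more, 1073 (8.86%) differed by over 1.5-fold between control 1 and control 2, and 563 (4.65%) between guide 1 and guide 3. Basal keratinocyte genes were among those that differed, high in control 2: KRT14, a basal keratin, was at 118 TPM (transcripts-per-million, a level scaled by transcript length and library total) in control 2 and at 0.31, 0 and 0.3 TPM in control 1, guide 1 and guide 3. Where a single control changes a main result below, this is said, but not for every gene or list. As a check of the cell line, VIM was at 1178 to 2268 TPM, KRT8 at 375 to 685 TPM and EPCAM at 29.4 to 41.7 TPM, and among squamous lineage genes TP63 (1.87 to 3.79 TPM) and KRT5 (0.05 to 1.26 TPM) were low in all 4 libraries while S100A2 (569 to 1931 TPM) and SFN (321 to 812 TPM) were high. The summed level of the squamous lineage list was 2974 and 7069 TPM in controls and 2362 and 2433 TPM with e1 guides. Of 16 fibroblast, 9 endothelial and 13 leukocyte markers, 6 to 8, 2 to 4 and 6 to 7 were at 0 counts in a library, including COL1A2 in all 4.

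SOX2 itself, at chromosome 3, positions 181429713 to 181432224 of hg19 on the plus strand, was the gene with the smallest p-value. It had 27 counts in control 1, 29 in control 2, 3062 with guide 1 and 7491 with guide 3. In TPM these were 1.68, 1.53, 224 and 316, so that both e1 libraries stood far above both controls and the groups did not overlap. The mean was 1.60 ± 0.11 TPM in controls and 270 ± 65.0 TPM with e1 guides (SD, n = 2 each). The change was 7.34 ± 0.24 on the log2 scale (SE), a 162-fold increase (edgeR quasi-likelihood test, Benjamini-Hochberg adjusted p = 0.00312, n = 2 against 2 libraries). For comparison, KYSE140, an esophageal squamous carcinoma line with high SOX2, was at 365 and 379 TPM in its CRISPRi control libraries. Its other controls were at 397 to 428 TPM (CRISPR control guides) and at 223 to 236 TPM (DMSO).

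The promoter sequence of SOX2 is shown because its transcript carries the main response, and those of LYPD1, FAM26E and ALPL because they are called genes, described below, whose 300 bases around the start hold a SOX word. They are RefSeq sequences of build GRCh38.p14, from 250 bases before the gene's start to 50 after it, on the gene's strand, at chr3:181711675-181711974, chr2:132671477-132671776, chr6:116511389-116511688 and chr1:21508734-21509033. Capitals mark a match to CATTGT or CTTTGT, the core words of SOX factor motifs, on either strand.
SOX2: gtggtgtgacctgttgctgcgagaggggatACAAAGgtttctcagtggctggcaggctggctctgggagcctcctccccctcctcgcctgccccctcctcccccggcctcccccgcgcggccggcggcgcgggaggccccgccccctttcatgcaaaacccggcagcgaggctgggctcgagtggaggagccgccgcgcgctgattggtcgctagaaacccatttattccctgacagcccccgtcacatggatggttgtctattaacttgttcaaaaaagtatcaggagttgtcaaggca
LYPD1: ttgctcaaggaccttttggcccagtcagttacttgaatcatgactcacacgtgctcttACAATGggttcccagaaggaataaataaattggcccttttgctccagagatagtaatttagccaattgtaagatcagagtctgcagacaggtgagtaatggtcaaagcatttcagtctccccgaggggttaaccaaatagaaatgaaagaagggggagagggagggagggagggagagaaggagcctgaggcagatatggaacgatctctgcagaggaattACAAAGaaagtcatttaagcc
FAM26E (now CALHM5): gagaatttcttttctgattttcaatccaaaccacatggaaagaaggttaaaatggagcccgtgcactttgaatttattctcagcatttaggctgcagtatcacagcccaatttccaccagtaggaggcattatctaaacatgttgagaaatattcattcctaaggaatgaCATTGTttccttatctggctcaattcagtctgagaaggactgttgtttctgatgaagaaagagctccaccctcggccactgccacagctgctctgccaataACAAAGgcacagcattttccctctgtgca
ALPL: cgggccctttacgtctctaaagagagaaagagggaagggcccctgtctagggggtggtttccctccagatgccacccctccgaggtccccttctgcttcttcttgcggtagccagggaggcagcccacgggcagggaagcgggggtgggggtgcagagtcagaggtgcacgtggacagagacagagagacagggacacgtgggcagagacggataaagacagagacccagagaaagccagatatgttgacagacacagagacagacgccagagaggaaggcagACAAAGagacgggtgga
In SOX2 the word starts at position -220, counting the first base of the gene as 0. LYPD1 holds words at -192 and 29, FAM26E at -80 and 21, and ALPL at 33.

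At the locus of SOX2, 15 genes within 2 Mb of its start on chromosome 3 were tested. SOX2-OT, the long noncoding RNA gene in whose introns SOX2 lies (positions 180707550 to 181554668), had 2 and 3 counts in the controls, 32 with guide 1 and 125 with guide 3. Over summed counts this is a ratio of 28.9 (95% exact interval 12.1 to 90.4, counting error only). It was called with each guide in the fit that takes the guides apart (adjusted p = 0.00313 and 7.55e-06, edgeR quasi-likelihood test), while its adjusted p was 0.0971 with the 2 e1 libraries as replicates. SOX2 lies within SOX2-OT on the same strand, so reads of overlapping exons cannot be told apart.

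LINC01206, a noncoding RNA gene that starts 240 kb beyond SOX2, differed between the guides. It had 3 and 0 counts in the controls, 9 with guide 1 and 1787 with guide 3. The high level thus rests on the guide 3 library: against the controls, the count ratio was 7.61 for guide 1 (95% exact interval 1.90 to 43.7) and 863 for guide 3 (295 to 4187), both intervals covering counting error only and not the spread between libraries. In the single-guide fit the adjusted p was 0.889 for guide 1 and 0.00691 for guide 3 (edgeR quasi-likelihood test).

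Of the protein-coding neighbours, FXR1, an RNA-binding protein gene at -844 kb from SOX2, had a log2 change of 0.14 ± 0.10 (SE), and ATP11B, a lipid flippase gene 1082 kb beyond it, of 0.19 ± 0.11, with adjusted p = 0.547 and 0.464 (edgeR quasi-likelihood test). LAMP3, a lysosomal membrane protein gene, had 96 and 71 counts in controls, 98 with guide 1 and 313 with guide 3, which puts it high in guide 3 alone. KLHL24, a ubiquitin ligase adaptor gene 1924 kb away, had 99 and 132 counts in controls, 203 with guide 1 and 321 with guide 3, both above the controls. Its log2 change was 1.06 ± 0.16, with adjusted p = 0.101 (edgeR quasi-likelihood test). In the single-guide fit its log2 change was 1.11 with guide 1 and 0.99 with guide 3. There it was called with both guides, but not against each control alone. SOX2 was the only one of the 15 called with the 2 e1 libraries as replicates.

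**Figure D1:**
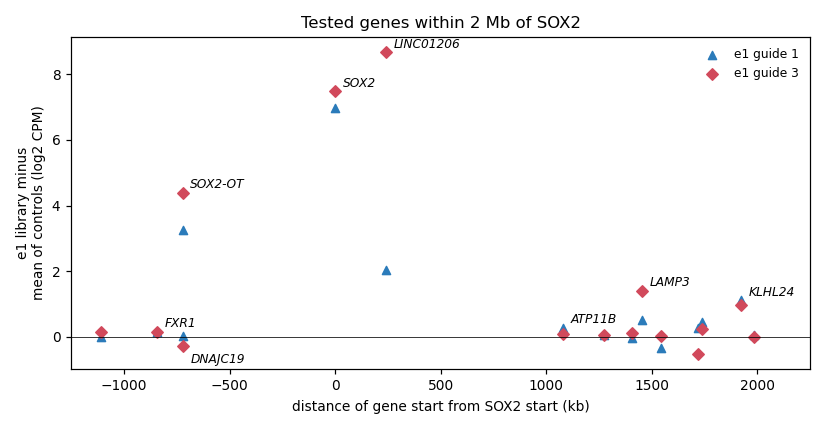
Log2 CPM (counts-per-million) in each e1 library minus the mean of the 2 controls (vertical axis) for the 15 tested genes within 2 Mb of SOX2, against the distance of the gene's start from that of SOX2 in kb; triangles are guide 1 and diamonds guide 3. SOX2 and SOX2-OT are high with both guides, and LINC01206 differs most between them.

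Across the genome, 31 of 14859 genes (0.209%) were called with the 2 e1 libraries as replicates, at an adjusted p under 0.05 and a change over 1.5-fold. Of these, 27 rose and 4 fell. At an unadjusted p under 0.05 there were 2147 genes. The median log2 change over all genes was 0.00. In all 31, both e1 libraries lay outside the range of the controls on the same side, which a call with the guides as replicates favours. Each of the 31 remained called when either control was left out, but without guide 3 only SOX2, COL14A1 and IGFBP5 remained called, and without guide 1 there were 10 of the 31.

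COL14A1, a fibril-associated collagen, had 10 and 7 counts in controls, 432 with guide 1 and 841 with guide 3, a 65.3-fold increase (log2 change 6.03 ± 0.25, edgeR quasi-likelihood adjusted p = 0.00548). SULF1, a sulfatase that trims heparan sulfate chains and so alters growth factor signalling, had 54 and 51 counts in controls, 519 and 934 with the guides (log2 3.62 ± 0.17, adjusted p = 0.00623). Once divided by library size, the 2 guides gave nearly equal levels of both genes. HS3ST5, which adds sulfate groups to heparan sulfate, went from 1 and 2 counts to 31 and 52, a count ratio of 25.5 (95% exact interval 8.43 to 126, counting error only).

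In the opposite direction, LOXL2, a lysyl oxidase that crosslinks collagen, had 1445 and 1529 counts in controls, 546 with guide 1 and 859 with guide 3, a fall to 0.43 of the control level (adjusted p = 0.0368, edgeR quasi-likelihood test). Of 47 tested genes of the matrix list, 3 of these were called (COL14A1, SULF1, LOXL2), and the list's median log2 change was -0.08. In the fit that takes the guides apart, 4 were called higher and 4 lower with both guides, where 1.42% and 0.807% of all genes were. VCAN, a chondroitin sulfate proteoglycan, was lower with both, with 913 and 2073 counts in controls and 427 and 669 with e1 guides, so the controls differed from each other by about as much as the lower control from the e1 libraries. Not all of the list's calls with both guides held against each control alone.

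IGFBP5, which binds insulin-like growth factors, rose from 15 and 24 counts to 553 with guide 1 and 542 with guide 3, 27.3-fold (adjusted p = 0.0228, edgeR quasi-likelihood test). EDN1, the precursor of endothelin, rose from 20 and 19 to 152 and 395 counts, 12.0-fold. CTGF, a matricellular protein gene that responds to YAP and TGF-beta signalling, had 1000 and 724 counts in controls against 5535 and 9432, 7.68-fold. STC1, a secreted glycoprotein hormone, rose from 29 and 42 to 175 and 309 counts, 6.16-fold. In these 4, as in every called gene that rose, both e1 libraries lay above both controls, which the call favours.

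ALDH1A3, which makes retinoic acid from retinaldehyde, was at 101 and 150 TPM in controls and at 632 and 675 TPM with the guides, 5.14-fold higher (log2 2.36 ± 0.18, edgeR quasi-likelihood adjusted p = 0.0228). TMEM2, a cell surface protein involved in hyaluronan turnover, was at 18.4 and 22.6 TPM against 107 and 134 TPM. ALPL, the tissue-nonspecific alkaline phosphatase, rose from 7 and 4 counts to 93 and 243, 25.7-fold. PGM2L1, a sugar phosphate enzyme gene whose reads are shared with other loci in part, rose 2.7-fold.

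TMOD1, which caps actin filaments, had 54 and 48 counts in controls and 605 and 864 with e1 guides, 13.2-fold higher (adjusted p = 0.00839, edgeR quasi-likelihood test). BMF, a BH3-only protein that promotes apoptosis, rose from 161 and 193 counts to 756 and 1513, 5.68-fold. LYPD1, a GPI-anchored modulator of nicotinic receptors, rose 9.16-fold, FAM26E, of the calcium homeostasis modulator family, 5.8-fold, RHOU, a small GTPase, 3.59-fold, and SEMA5A, a transmembrane semaphorin that guides axons, 4.8-fold. PCDH11X, a protocadherin, rose 6.26-fold, APBA1, a neuronal adaptor, 6.14-fold and MEGF9 5.57-fold, and the counts of these 3 hold fractions of reads shared with other loci. The remaining risen genes were VWA5B2 (10.4-fold), SIPA1L2 (5.12-fold), TMEM156 (2.93-fold), ZNF436, a zinc finger protein (2.53-fold), TMTC1, a mannosyltransferase of the endoplasmic reticulum (2.2-fold) and ENC1, an actin-binding adaptor (1.99-fold), the smallest change among the 27.

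Among the other 3 fallen genes, CGB5, which encodes a beta subunit of chorionic gonadotropin, had 782 and 1044 counts in controls against 218 and 414 (log2 change -1.69 ± 0.12, edgeR quasi-likelihood adjusted p = 0.0228). Its near-identical copies share reads, so the family is the safer unit. All 5 tested members were lower with both guides, from -1.58 (CGB2) to -2.96 (CGB) on the log2 scale. The share of all genes lower with both was 3.2%, but copies that share reads do not count as separate genes. Not every member was called with both guides against each control alone. EHD2, a membrane-shaping ATPase of caveolae, fell to 0.452 and XRCC4, a DNA ligase partner in end joining, to 0.37 of the control level. Both e1 libraries were below both controls in each, as in every called gene that fell, which the call favours.

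**Figure D2:**
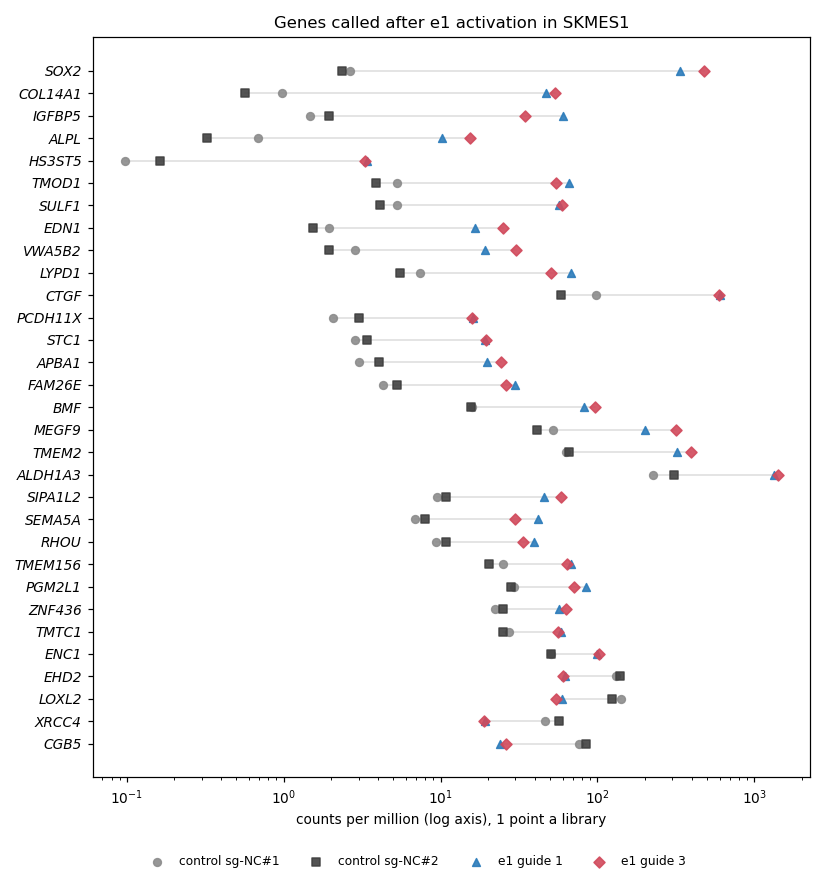
CPM on a log axis in each of the 4 SKMES1 libraries for the 31 called genes, ordered by log2 change from SOX2 (7.34) down to CGB5 (-1.69); circles and squares are the 2 controls, triangles guide 1 and diamonds guide 3. The e1 libraries lie to one side of both controls in every row.

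A wider view comes from a fit in which each guide was its own group and the spread was taken from all 17 libraries, the lone library of a guide being assumed to vary like the others. Guide 1 gave 526 calls (322 higher, 204 lower) and guide 3 gave 1070 (658 higher, 412 lower) among 17229 genes. Called with both guides in the same direction were 383 genes, 244 higher (1.42% of those tested) and 139 lower (0.807%). Both comparisons use the same 2 controls, so a control that stands apart can make a gene pass with both. When the fit was repeated against each control alone, 223 of the 383 passed every time with both libraries outside the controls, 164 higher and 59 lower. With only the 4 SKMES1 libraries in the fit, 3 genes were called with both guides.

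Beside the 31, genes called with both guides and against each control included several that were near 0 in controls. SCG2, a secretogranin of neuroendocrine vesicles, had 16 and 9 counts in controls, 126 with guide 1 and 2976 with guide 3, so its direction was shared but its size was not. RASD1, a Ras-like GTPase induced by glucocorticoids, had 6 and 10 counts, then 62 and 520. GIMAP5, a GTPase best known from lymphocytes, had 2 and 0 counts, then 24 and 61. LRRC7, a synaptic scaffold gene, had 3 and 1 counts, then 47 and 50. DLX5, a homeobox factor, and C8orf4 (2 and 0 control counts each) were called with both guides but not against each control alone. Of the 383, 382 were also tested in the 4-library fit, and in 367 of these (96.1%) guide 1 and guide 3 were within 2-fold, as in 96.6% of all genes tested. Guide 3 exceeded guide 1 by over 2-fold in 12, and guide 1 exceeded guide 3 in 3.

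In some shared calls the controls stood far apart. ENO3, the muscle enolase, had 5627 counts in control 1, 179 in control 2, 18 with guide 1 and 27 with guide 3. The fitted log2 change of -7.27 rests mostly on control 1. MMP28, an epithelial metalloproteinase, had 57 and 696 counts in controls against 18 and 24, and L1CAM, a neural adhesion molecule, 264 and 1779 against 105 and 161; in both, control 2 was the high library. L1CAM, like ENO3, was called with both guides against either control, and MMP28 was not. Of the 382 genes, the controls differed by over 1.5-fold from each other in 99 (25.9%), against 14.5% of all genes tested.

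Genes were also sorted by size, with no test. A gene was placed with both guides when each e1 library was over 1.5-fold from the mean of the controls on the same side and outside their range, and with 1 library when only that one was. Both guides were higher in 621 genes (4.18%) and lower in 476 (3.2%). The guide 1 library alone was set apart in 776 (5.22%) and the guide 3 library alone in 1006 (6.77%), while 62 moved in opposite directions. LINC01206 is placed with both guides by this rule, on 9 counts for guide 1.

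**Figure D3:**
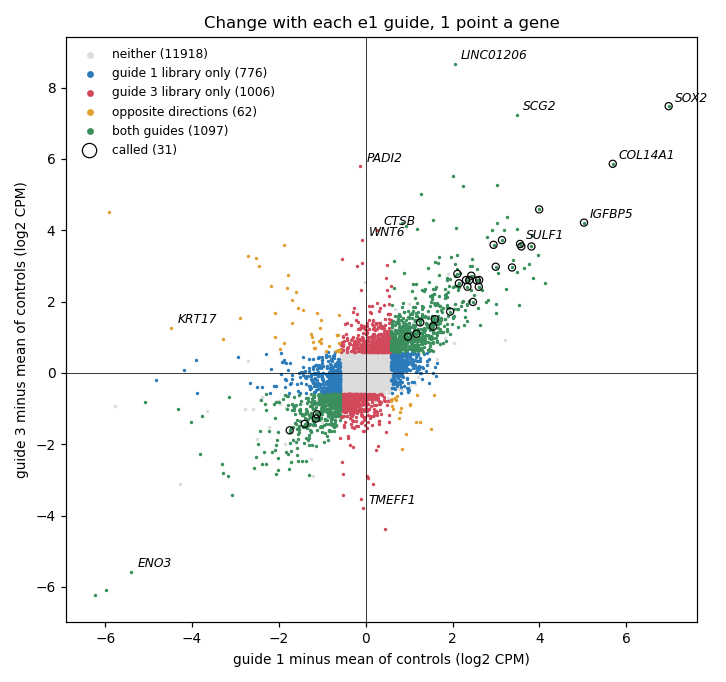
Log2 CPM in the guide 1 library (horizontal axis) and the guide 3 library (vertical axis), each minus the mean of the same 2 controls, for 14859 genes coloured by class, with the 31 called genes circled. SOX2 and COL14A1 lie near the diagonal with both guides, while PADI2, WNT6 and CTSB lie on the vertical axis, high with guide 3 alone.

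The guide 3 library held the largest departures seen in 1 e1 library. PADI2, an enzyme that converts arginine in proteins to citrulline, had 53 and 99 counts in controls, 54 with guide 1 and 5787 with guide 3. WNT6, a secreted WNT ligand, had 126 and 87 in controls, 81 with guide 1 and 1964 with guide 3. CTSB, the lysosomal protease cathepsin B, had 3520 and 4826 in controls, 4052 with guide 1 and 93512 with guide 3, where it reached 4399 TPM. Against the controls, the guide 3 library was higher by 5.77 (PADI2), 3.71 (WNT6) and 4.01 (CTSB) on the log2 scale in the single-guide fit. These sizes rest on 1 library. The genes were picked with guide 3 past 1.5-fold and guide 1 within 1.5-fold of the controls, by the largest gap between the guides. Both the large guide 3 change and the lack of a guide 1 call therefore follow from that choice. With the 2 e1 libraries as replicates none was called, since they differ so much. The difference between guide 3 and guide 1 is between single libraries and has no test.

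Smaller departures of the same kind were FRMPD3 (1106 counts with guide 3 against 69 to 134 in the other libraries), NANOS1, a translational repressor of germ cells (644 against 40 to 67), IL23A, a cytokine subunit (191 against 12 to 19), DAPK2, a kinase of cell death (370 against 52 to 91), and GDA, guanine deaminase (208 against 26 to 63). Together with PADI2, WNT6 and CTSB these are 8 genes on 8 chromosomes. Of 28 other tested genes within 100 kb of one of them, 5 differed by over 1.5-fold between guide 3 and the mean of the controls, in either direction (17.9%, against 15.4% of all genes tested). Within 100 kb of CTSB, 3 other genes were tested and 0 differed by over 1.5-fold in guide 3, among them FDFT1, 3.13 kb away, at 1310 counts against 1028 and 947 in controls. Near WNT6, CYP27A1 (376 counts against 102 and 111 in controls) and CDK5R2 (259 against 83 and 104) were also high with guide 3, and WNT10A, 6.62 kb away, was not (47 against 35 and 60).

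One gene was nearly lost from the guide 3 library. TMEFF1, a transmembrane protein with follistatin and EGF-like domains, had 136, 150 and 111 counts in controls and guide 1, and 12 with guide 3 (log2 -4.04, adjusted p = 0.106, edgeR quasi-likelihood test). CTAGE4, one of a family of near-identical copies, had 33 counts with guide 3 against 72 to 170, and its counts are uncertain for that reason.

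The guide 1 library departed less. Its genes were picked with guide 3 within 1.5-fold of the controls, so the lack of a guide 3 call follows from that choice. ETV5, an ETS factor downstream of FGF signalling, had 904 and 1153 counts in controls, 1728 with guide 3 in a library of greater depth, and 2612 with guide 1 (log2 1.64, adjusted p = 1.15e-05 for guide 1 and 0.335 for guide 3, edgeR quasi-likelihood test). ITGA7, a laminin-binding integrin, had 76, 64 and 114 counts in controls and guide 3, and 153 with guide 1. Lower with guide 1 were KRT15, a basal keratin (37 counts against 100, 386 and 215 in control 1, control 2 and guide 3), and NPTX1, a synaptic pentraxin (86 against 122, 740 and 347). In the last 2 the controls differed from each other more than guide 1 from control 1. ELF3, ANXA8, RASD2, PKD1P3, RPL13AP5 and STAG3L1 were also lower with guide 1; of these, ANXA8 and the 3 pseudogenes share reads with copies.

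**Figure D4:**
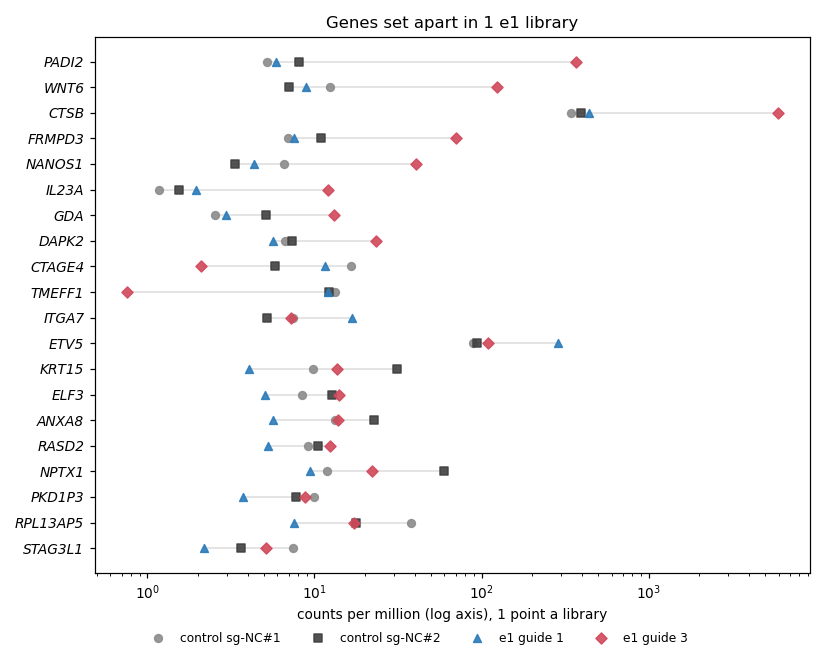
CPM on a log axis in each of the 4 libraries for the 10 genes of each e1 library that differ most between guide 3 and guide 1 while the other guide stays within 1.5-fold of the controls. PADI2, WNT6 and CTSB are the 3 widest gaps, each with the guide 3 point alone at the right.

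Of 10 other SOX genes tested, SOX5, a regulator of chondrocyte and neural development, was higher with both guides (9 and 24 counts in controls, 92 and 91 with e1 guides). SOX9, which marks progenitor and glandular cells, was lower with both, at 616 and 843 counts in controls and 318 and 587 with guides, a log2 change of -0.84 ± 0.12. SOX21 had 14 and 30 counts in controls, 32 with guide 1 and 216 with guide 3, and was called with guide 3 alone. With the e1 libraries as replicates none of the 10 was called, with adjusted p = 0.148 for SOX5 and 0.0971 for SOX9 (edgeR quasi-likelihood test). POU3F2, a neural partner of SOX2, had 8 and 15 counts in controls and 29 and 89 with e1 guides, and was not called with both guides.

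The squamous lineage list shows how far control 2 sets a result. Of its 27 tested genes, 10 were lower with both guides (37%, against 3.2% of all genes) and 2 higher, and the median log2 change was -0.75. But 26 of the 27 were higher in control 2 than in control 1, 21 of them by over 1.5-fold, with a median gap of 0.87 on the log2 scale. KRT17, a keratin of activated keratinocytes, had 25 counts in control 1, 10627 in control 2, 18 with guide 1 and 1807 with guide 3. COL17A1, a hemidesmosome collagen, had 22 and 2140 in controls and 8 and 34 with the guides. Relative to library size the e1 libraries lay at or below control 1 in both genes, except for KRT17 with guide 3, which lay between the controls. None of the 27 was called with the e1 libraries as replicates. With both guides singly, members were called on both sides, and most of those lower did not hold against each control alone. TFAP2C, an AP-2 factor (41 and 77 counts in controls, 99 and 293 with e1 guides), was among those higher and held against each control. TP63, the master factor of the squamous lineage, had 76 and 112 counts in controls and 41 and 84 with e1 guides, a log2 change of -0.75 ± 0.23 (adjusted p = 0.266, edgeR quasi-likelihood test). In the single-guide fit it was called lower with both guides (log2 -0.89 and -0.64, adjusted p = 0.0235 and 0.0308), but not against each control alone, and a fit of the e1 group over all 17 libraries called it (adjusted p = 0.00355). KLF5, a factor of squamous epithelia, had 175, 542, 332 and 703 counts in control 1, control 2, guide 1 and guide 3, and in counts per library total the e1 libraries lay at or near control 2. Its log2 change was -0.12 without control 1 and 1.24 without control 2, where it was called (adjusted p = 0.0283, edgeR quasi-likelihood test).

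**Figure D5:**
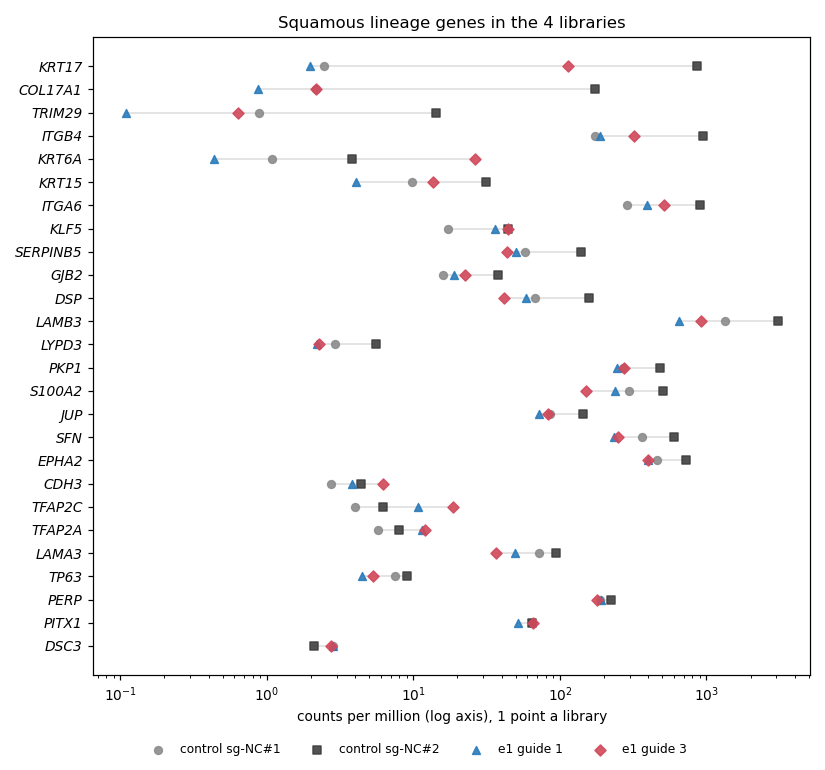
CPM on a log axis in each of the 4 libraries for 26 of the 27 tested genes of the squamous lineage list, ordered by the gap between control 2 and control 1. In 25 of the 26 the control 2 square lies to the right of the control 1 circle.

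Other lists were described in the same way, by counts beside the background of 4.18% higher and 3.2% lower with both guides. Of 18 targets of NRF2, the factor of the oxidative stress response, 5 were higher with both guides and 0 lower, with a median log2 change of 0.45. The controls differed here too: 3 of the 18 were higher in control 2 than in control 1, with a median gap of -0.33 on the log2 scale. AKR1B10, an aldo-keto reductase whose reads are shared with relatives in part, had 460 and 391 counts in controls, 1887 and 5460 with e1 guides, and HMOX1, heme oxygenase, 1249 and 1525 against 2230 and 4863. Both passed with each guide and against each control, while their adjusted p with e1 libraries as replicates was 0.0551 and 0.0698 (edgeR quasi-likelihood test). NQO1, another target, had a log2 change of 0.00 ± 0.16, and 13 of the 18 were not higher with both guides.

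In the mesenchymal transition list, 3 of 22 genes were higher and 5 lower with both guides. THBS1, a matricellular glycoprotein, had 3168 and 4489 counts in controls and 6752 and 14602 with e1 guides, and CTGF, above, was the one called. FN1, fibronectin, had 2594 and 3097 against 1356 and 1632, and CDH11, a mesenchymal cadherin, 760 and 1602 against 315 and 745. The members called with both guides thus lay on both sides, and not all of them held against each control alone. Of 36 Hedgehog, WNT and FGF genes 4 were higher and 2 lower, among them WNT5A, a non-canonical ligand (79 and 56 counts in controls, 224 and 509 with e1 guides). Of the 26 cell cycle genes 0 were higher and 1 lower, and their median log2 change was -0.34. The 20 tested genes of cholesterol synthesis (0 higher, 1 lower), 19 of hypoxia and glycolysis (0 and 0), 26 of the interferon response (0 and 1), 20 of the NF-kB response (2 and 2), 18 of AP-1 and immediate early genes (3 and 2), 15 of the heat shock response (1 and 0), 19 of ATF4 stress and amino acid genes (2 and 0), 21 of epithelial junctions (1 and 4) and 5 of the cornified envelope (1 and 0) held no gene called with the e1 libraries as replicates.

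Of 14 neuroendocrine and neural markers 5 were tested, and 2 were higher with both guides (40%, against 4.18% of all genes tested). These were SCG2, whose size rested on guide 3, and MAP2, a dendritic microtubule protein (965 and 912 counts in controls, 1352 and 2414 with e1 guides). CHGA and SYP stayed under 0.5 TPM in all 4 libraries. Summed over the 14 markers, the level was 2188 and 1755 TPM in controls and 2251 and 2130 TPM with e1 guides. KDR, the endothelial VEGF receptor, had 12 and 20 counts in controls, 40 with guide 1 and 472 with guide 3. Of the 3 endothelial markers tested it was the only 1 with a positive log2 change, and their median was -0.18. The summed level of the 9 endothelial markers was 5.85 and 8.97 TPM in controls and 6.35 and 14.4 TPM with e1 guides. The summed level of the 16 fibroblast markers was 105 to 137 TPM over the 4 libraries.

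The KYSE140 libraries allow a look at the same genes when e1 or SOX2 is taken away. There, e1 was repressed by CRISPRi in 2 libraries against 2 controls, and SOX2 was cut by CRISPR in 3 against 2. Repression called 2795 of 13792 genes (20.3%) and knockout 4210 of 13978 (30.1%), in either direction. Of the 27 genes that rose in SKMES1, 21 were tested after repression, of which 12 fell and 4 rose, and 21 after knockout, of which 9 fell and 4 rose. SOX2 itself, the gene acted on, is among those that fell in each, which was the aim of the perturbation. Of the 4 that fell, all were tested and 3 rose in each (CGB5, EHD2 and LOXL2). SULF1 had log2 changes of -3.07 after repression and -3.58 after knockout, TMTC1 of -3.27 and -2.66, and ALPL of -1.90 and -3.07. LYPD1 had -1.85 and -4.40, and VWA5B2 -1.88 and -5.32. These 5 thus moved opposite to SKMES1 in both experiments. ALDH1A3 (1.57 and 2.09), TMEM156 (3.98 and 3.14) and ENC1 (1.05 and 2.17) rose in KYSE140 as in SKMES1. CTGF rose after repression (1.09) and fell after knockout (-0.79). SIPA1L2 rose after knockout (0.92) and had -0.11 after repression, which was not called. IGFBP5 fell after repression (-1.82) and had -0.27 after knockout, which was not called. COL14A1, FAM26E, STC1, PCDH11X, SEMA5A and HS3ST5 did not pass the count filter in KYSE140.

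Among the wider set, of 243 genes higher with both guides 196 were tested after e1 repression, where 86 fell and 26 rose, and 194 after knockout, where 81 fell and 23 rose. Of 139 genes lower with both guides, 62 rose and 11 fell among 119 tested after repression, and 78 rose and 14 fell among 122 after knockout. Over all tested genes higher in SKMES1 by any amount, 814 fell and 463 rose of 6256 after repression, and 832 fell and 808 rose of 6268 after knockout. Over those lower by any amount, 524 fell and 666 rose of 6584 after repression, and 910 fell and 1058 rose of 6587 after knockout. SOX2 is again among the genes that fell in each experiment. The controls differed from each other by over 1.5-fold in 42 (30.2%) of the genes lower with both guides and in 57 (23.5%) of those higher. Not all genes of either set held against each control alone.

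Seen from the other side, of the 1000 genes with the smallest p-values that fell after SOX2 knockout in KYSE140, 946 were tested in SKMES1, and 90 (9.51%) were higher and 18 (1.90%) lower with both e1 guides. Of 865 tested among the 1000 that rose, 19 (2.2%) were higher and 104 (12.0%) lower. The backgrounds over all genes were 4.18% and 3.2%. The medians were near 0, at -0.04 for the genes that fell and -0.11 for those that rose. The list that rose was also higher in control 2 than in control 1, by a median of 0.21 on the log2 scale, and its part in the count of lower genes was tested only by the calls against each control: 60 of the list were called lower with both guides and 22 of these held against each control, and for the list that fell, 63 were called higher and 42 held.

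Promoter words were counted in 300 RefSeq bases a gene. A SOX word (CATTGT or CTTTGT, both strands) was found in 5 of the 22 risen genes with an entry (22.7%), in 47 of 184 genes called higher with both guides (25.5%), in 14 of 110 called lower (12.7%), in 15.8% of 11224 promoters of genes tested and in 24.6% of all 27305 promoters. The fifth gene, beside those printed, was MEGF9. An AP-1 word (TGAGTCA or TGACTCA, which are reverse complements) was in 2 of the 22, LYPD1 and TMEM156, and in 3.15% of the promoters of tested genes. The called genes APBA1, ENC1, COL14A1, SULF1, STC1 and LOXL2 had no entry in the set of promoters used here, so their words were not counted.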

How the data were processed

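RNA-seq was analysed for 4 SKMES1 libraries, with 13 KYSE140 libraries used for the spread in the single-guide fit and for look-ups. The authors isolated poly-A RNA, made directional libraries, used Bowtie2 for alignment to hg19 and RSEM for quantification of GENCODE genes (versions not given in the sources used here). They deposited an expected count and a TPM value per gene. RSEM splits reads shared by several genes, so near-identical copies have fractional counts and are uncertain. Genes were matched by identifier to GENCODE v44lift37 on hg19 (96.05% of 57820).

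Expected counts were rounded. Genes were filtered with filterByExpr (minimum count 10, total 15), scaled by TMM and tested with the edgeR 4.0.16 quasi-likelihood test (limma 3.58.1, R 4.3.3; glmQLFit with legacy = FALSE), Benjamini-Hochberg adjusted over all genes tested. A call needs an adjusted p under 0.05 and a change over 1.5-fold. The standard error is the log2 change divided by the square root of F. Exact intervals are Clopper-Pearson. The 2-guide fit took each e1 guide as a group of 1 among 17 libraries, with 17229 genes tested. Log2 CPM used a prior count of 2. DESeq2 1.42.0 was an alternative. The scripts were tested on simulated counts.

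Named genes were SOX2 and its neighbours, all 31 called genes and up to 10 genes called with both guides by the smaller change. Added were 10 genes of each single library with a mean of at least 50 counts. List members that were called or lay at a list's ends were also named. Other genes named, whether members of a list or not, were chosen after their values were seen. The members and lists were chosen with earlier results of these data known. Guide sequences were not used here, and some list members are not reported here.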

Additional observations from a re-analysis of the deposited data

How the results depend on the processing

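The count of 31 calls depended on how the spread between libraries was estimated. The edgeR exact test gave 523 calls, the likelihood ratio test 561, DESeq2 400 and a fit over all 17 libraries 956, and each held all 31. limma on log2(TPM + 1) gave 9 and on log2(TPM + 0.1) gave 8, of which 7 were among the 31. Leaving out each library in turn gave 3 (without guide 3) to 723 (without control 1) calls. Without control 2 there were 247 and without guide 1 there were 23. RLE or library size scaling, dropping the filter, raising it to an average of 50 counts, legacy = TRUE, and a fold minimum of 2 or none gave 28 to 40 calls. SOX2 rose under every one of these settings, by 6.68 to 7.57 on the log2 scale.

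With the 4 SKMES1 libraries alone, guide 1 had 3 calls, guide 3 had 27 and both guides 3. Leaving out a control gave 628 to 1223 calls for guide 1, 1229 to 1658 for guide 3 and 436 to 893 with both; the high ends are without control 1. A fold minimum of 2 left 412 genes with both guides, 358 with guide 1 alone and 415 with guide 3 alone. KLF5 alone changed direction among the single genes recomputed, to -0.12 without control 1 against 1.24 without control 2.

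No paired analysis was possible in SKMES1 because the groups share only replicate number 1. In the KYSE140 e1 repression look-up a replicate block gave 2902 calls against 2795, and same-numbered libraries did not deviate together (r = 0.016 over 11145 genes), so the number is only a name.

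With 2 libraries a group and controls that differ from each other in 8.86% of well-counted genes, a gene missing from the calls is not shown to be unchanged. Genes near 0 counts in controls have only wide intervals of fold.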
